A study of Homo sapiens with 12 samples.

Results

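The genes described here encode the machinery that copies DNA in S phase, the licensing factors that prepare origins for it, the enzymes that supply deoxynucleotides, and the E2F factors and E cyclins that control entry into S phase. They were taken as a list of 59 gene symbols of which the annotation of the array named 32, and these 32 were measured among 14884 named genes. The other 27, which include all listed subunits of the origin recognition complex, of the clamp loader RFC, of the single-strand binding protein RPA and of the replicative polymerases, are not analysed here. The cells were HepG2, an established human hepatoblastoma line that carries a deletion affecting exon 3 on 1 allele of CTNNB1. The line therefore makes a truncated, stabilised β-catenin beside the full-length one. Every group was the same line harvested at 120 h after transfection with 1 small interfering RNA: sißCat-mut, directed at the truncated form, sißCat-both, directed at both forms, sißCat-WT, directed at the full-length form, or siCtrl, the control. Each group had 3 arrays, 12 in all.

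β-Catenin is the transcriptional effector of Wnt signalling and acts with TCF/LEF factors on genes such as MYC and CCND1, which favour passage from G1 into S phase. In G1, ORC, CDC6 and CDT1 load the MCM2 to MCM7 ring on origins, and in S phase the CDC7 kinase with DBF4 and the cyclin-dependent kinases turn it into the active helicase by joining CDC45 and the GINS complex to it. Many of these genes are transcribed late in G1 through E2F factors, which RB-family proteins hold back in resting cells, and their mRNAs are known to be more abundant in cycling than in resting cells.

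The values are log2 intensities after robust multi-array averaging, so a difference of 1 is a factor of 2 in measured signal. A level of 1 gene is not compared with that of another. Replicate arrays correlated at 0.994 to 0.997 over all named genes, and the array medians over named genes lay between 5.96 and 6.02. The gene targeted by the siRNAs was not analysed here, so the groups rest on the sample labels. Of the hepatocyte markers 8 of 10 were measured, with mean log2 levels per gene and group from 9.34 to 13.53, and their mean over the list was 12.70 to 12.77 after sißCat-mut, 12.66 to 12.69 after sißCat-both and 11.90 to 12.01 after sißCat-WT, against 12.11 to 12.18 after siCtrl. Fibroblast markers (2 of 5 measured, DCN and LUM) averaged 2.99 to 3.22 on every array and endothelial markers (3 of 4) averaged 3.99 to 4.46. The leukocyte list had 2 of 5 measured, LYZ and CD68, at a list mean of 11.33 to 11.52 after sißCat-mut, 10.84 to 11.14 after sißCat-both and 11.20 to 11.33 after sißCat-WT, against 11.36 to 11.40 after siCtrl. LYZ averaged 12.34 after sißCat-mut, 11.60 after sißCat-both and 12.68 after sißCat-WT, against 12.72 after siCtrl, and CD68 averaged 10.51, 10.31 and 9.86 in the same knockdowns, against 10.03 after siCtrl. The biliary list (3 of 3 measured, KRT7, KRT19 and EPCAM) averaged 7.87 to 8.08 after sißCat-mut, 7.78 to 7.93 after sißCat-both and 7.92 to 8.17 after sißCat-WT, against 7.92 to 7.97 after siCtrl. The part of these shifts in the results was not tested. In a bulk sample, fewer cells in S phase and less RNA per cell cannot be told apart.

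Promoter sequences show what many of these genes have in common. Many of them are known to be transcribed through E2F factors, so the share of E2F motifs describes the list and is no test. For 27 of the 32 genes a window from 250 bases before to 50 bases after the transcription start was at hand (RefSeq, GRCh38.p14), and the E2F motif was searched on both strands in the forms TTTCCCGC, TTTCGCGC, TTTGCCGC and TTTGGCGC. It stood in the windows of 19 of 27 genes (70.4%, 95% exact binomial interval 49.8% to 86.2%), beside 578 of the 10749 named genes with a window (5.38%) and 1164 of all 35116 windows (3.31%). With the shorter forms TTCCCGC and TTGGCGC it was 20 of 27 genes (74.1%), beside 14.8% of named genes. The stretches below run 5′ to 3′ on the strand of the gene, end at the base before the transcription start and are shown for genes described one by one in the results: MCM3 and MCM6 of the helicase, the clamp PCNA, the regulator E2F1, and TYMS and RRM2 of nucleotide synthesis. Capitals mark the E2F motif, except in RRM2, which held no E2F match and where they mark 3 CCAAT boxes. In MCM6 the forms TTTGGCGC and TTTCGCGC overlap on opposite strands, and E2F1 holds 2 separate matches.
MCM3, chr6:52284743-52284922 (- strand): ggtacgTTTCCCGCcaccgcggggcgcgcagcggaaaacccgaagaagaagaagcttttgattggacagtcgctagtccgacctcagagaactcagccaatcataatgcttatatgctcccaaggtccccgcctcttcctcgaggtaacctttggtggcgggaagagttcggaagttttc
MCM6, chr2:135876444-135876563 (- strand): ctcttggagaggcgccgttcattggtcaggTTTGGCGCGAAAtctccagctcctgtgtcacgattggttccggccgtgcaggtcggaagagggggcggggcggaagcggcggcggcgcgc
PCNA, chr20:5126623-5126742 (- strand): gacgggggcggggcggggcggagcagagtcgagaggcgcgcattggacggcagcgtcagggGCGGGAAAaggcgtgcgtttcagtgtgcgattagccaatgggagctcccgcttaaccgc
E2F1, chr20:33686386-33686505 (- strand): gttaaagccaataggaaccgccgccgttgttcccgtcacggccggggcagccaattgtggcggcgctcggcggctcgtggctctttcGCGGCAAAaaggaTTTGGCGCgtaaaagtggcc
TYMS, chr18:657533-657652 (+ strand): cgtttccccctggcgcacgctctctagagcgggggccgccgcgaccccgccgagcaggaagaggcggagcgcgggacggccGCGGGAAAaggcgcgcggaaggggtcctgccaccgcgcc
RRM2, chr2:10122599-10122738 (+ strand): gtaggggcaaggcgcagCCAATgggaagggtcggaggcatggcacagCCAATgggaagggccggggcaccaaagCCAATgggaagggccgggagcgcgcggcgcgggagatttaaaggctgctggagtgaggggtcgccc

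The shares of the other motifs lay closer to those of all named genes. CCAAT, the box bound by NF-Y, was in the windows of 15 of 27 genes (55.6%) and 41.4% of named genes. The E-box CACGTG, a form that MYC can bind, was in 4 of 27 (14.8%) and 11.0%, and TTTGAA, the core of the cell cycle homology region of mitotic genes, in 3 of 27 (11.1%) and 15.3%. CTTTGAT, a TCF motif, was in 0 of 27 windows, which leaves an exact upper bound of 12.8%, and in 2.48% of named genes. The 19 genes with an E2F match had median changes of -0.58 after sißCat-mut and -0.75 after sißCat-both relative to siCtrl, and the 8 without one had -0.58 and -0.70. A match in a window is a description of its letters, and its absence says only that these letters are not there.

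**Figure D1:**
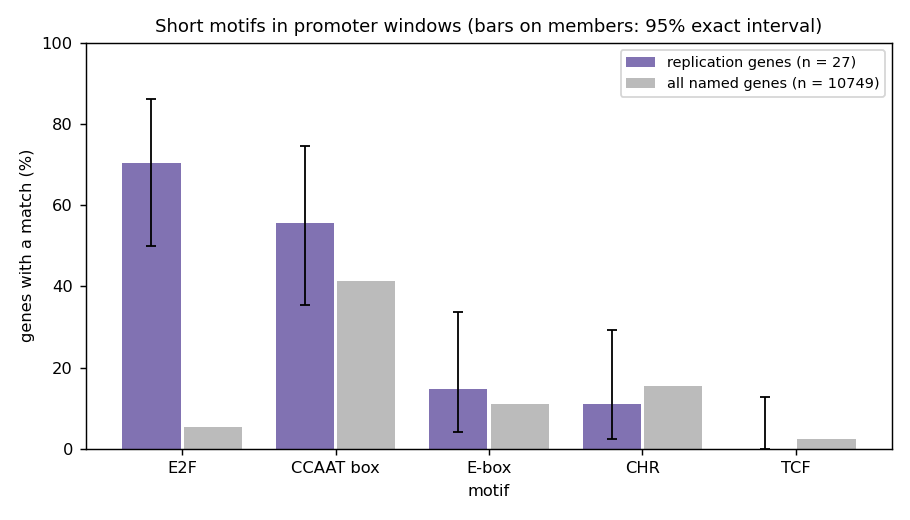
Share of genes, in percent, whose promoter window holds each motif, for the 27 replication genes with a window (purple, with 95% exact binomial intervals) and for the 10749 named genes with one (grey). The E2F bars stand at 70.4% and 5.38%, and the intervals of the other motifs span the grey bars.

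Knockdown of the truncated β-catenin lowered most of the replication genes, knockdown of both forms lowered all that were measured, and knockdown of the full-length form alone left most of them uncalled. After sißCat-mut 28 of 32 genes were lower than after siCtrl with an adjusted p under 0.05 in limma, and 0 were higher, where 13.6% of all named genes were called lower and 11.98% higher. After sißCat-both 32 of 32 were lower and 0 higher, where the background was 18.1% lower and 15.5% higher. After sißCat-WT 1 was lower and 2 were higher, where 4.97% and 5.20% of named genes were called. The median log2 change of the 32 genes was -0.60 after sißCat-mut, -0.82 after sißCat-both and -0.08 after sißCat-WT, and that of all named genes was 0.01, -0.01 and 0.01. The 3 comparisons share their siCtrl arrays. The sißCat-WT calls, of TYMS, CCNE1 and CCNE2, numbered 0 without siCtrl replicate 2 or sißCat-WT replicate 2, 1 without sißCat-WT replicate 3 and 5 without sißCat-both replicate 1.

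**Figure D2:**
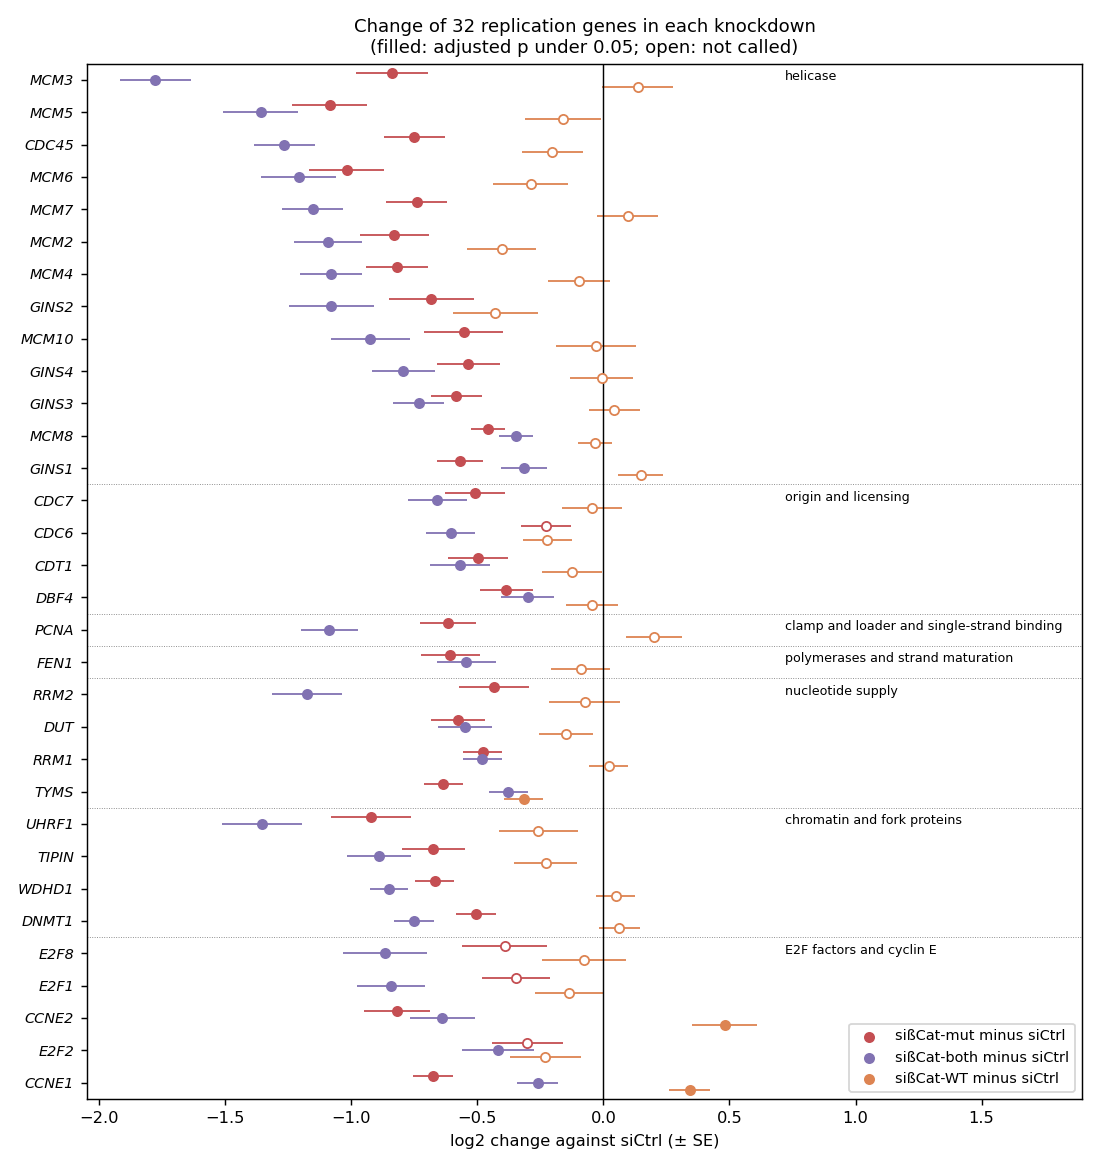
Log2 change against siCtrl with its standard error for each of the 32 genes, grouped by role, after sißCat-mut (red), sißCat-both (purple) and sißCat-WT (orange). Filled points passed an adjusted p of 0.05. Red and purple points lie left of 0 for every gene, from -0.23 to -1.09 and from -0.26 to -1.78, and orange points lie between -0.43 and 0.48.

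The knockdowns were also set against each other directly. Between sißCat-mut and sißCat-WT, 26 of 32 genes were lower after sißCat-mut and 0 higher (background 17.00% lower, 13.98% higher), with a median difference of -0.52. The other 6 were CDC6, GINS2, RRM2, E2F1, E2F2 and E2F8. Between sißCat-both and sißCat-WT, 29 of 32 were lower after sißCat-both and 0 higher (background 20.1% lower, 16.1% higher), with a median of -0.74, and DBF4, TYMS and E2F2 did not pass.

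All 13 listed genes of the helicase group (the ring with its partners, and MCM8) were measured, and all 13 fell after sißCat-mut and after sißCat-both, with median changes of -0.74 and -1.08, whereas limma called 0 of 13 after sißCat-WT, with MCM2 (-0.40 ± 0.14, adjusted p = 0.0813) and GINS2 (-0.43 ± 0.17, adjusted p = 0.144) the 2 below an unadjusted p of 0.05. MCM2 was called lower after sißCat-WT in 6 of 21 alternatives, among them array weights and the replicate block, and GINS2 in 3 of 21. MCM3, a subunit of the MCM2 to MCM7 ring, had log2 levels of 10.03, 9.99 and 9.91 after sißCat-mut, 9.49, 8.78 and 8.84 after sißCat-both and 10.90, 11.02 and 10.93 after sißCat-WT, against 10.77, 10.86 and 10.81 after siCtrl. No array of the knockdowns that reach the truncated form overlapped the siCtrl arrays, and the sißCat-both arrays lay below all sißCat-mut arrays. Its change was -0.84 ± 0.14 after sißCat-mut (log2 ± standard error, adjusted p = 0.000544) and -1.78 ± 0.14 after sißCat-both (3.43-fold lower, adjusted p = 5.34e-07), the deepest fall of the 32 genes. MCM5, another subunit of the ring, had 7.85, 7.82 and 7.53 after sißCat-mut, 7.85, 7.21 and 7.32 after sißCat-both and 8.79, 8.74 and 8.44 after sißCat-WT, against 8.89, 8.82 and 8.75 after siCtrl. It was 2.12-fold lower after sißCat-mut (adjusted p = 0.000115) and 2.57-fold lower after sißCat-both (adjusted p = 9.3e-06). MCM5 and MCM6 (-1.02 ± 0.15 after sißCat-mut, -1.21 ± 0.15 after sißCat-both) were the 2 genes of the list that fell by at least a factor of 2 after sißCat-mut. After sißCat-both, 11 of the 32 did: MCM2 to MCM7, CDC45, GINS2, PCNA, RRM2 and UHRF1.

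CDC45, which joins the ring when an origin fires, had 7.59, 7.45 and 7.41 after sißCat-mut, 7.24, 6.78 and 6.88 after sißCat-both and 8.24, 7.90 and 7.95 after sißCat-WT, against 8.20, 8.16 and 8.34 after siCtrl. Its 3 siCtrl arrays stood above every sißCat-mut and sißCat-both array, with changes of -0.75 ± 0.12 (adjusted p = 0.000392) and -1.27 ± 0.12 (adjusted p = 2.64e-06). GINS1, a subunit of the GINS complex that completes the active helicase, moved least within this role after sißCat-both, with 9.30, 9.33 and 9.29 after sißCat-mut, 9.73, 9.39 and 9.56 after sißCat-both and 10.09, 10.08 and 9.91 after sißCat-WT, against 9.88, 9.96 and 9.79 after siCtrl. Both knockdown groups were below siCtrl without overlap, by -0.57 ± 0.09 after sißCat-mut (adjusted p = 0.000355) and by -0.32 ± 0.09 after sißCat-both (adjusted p = 0.0147). The second of these calls was lost without siCtrl replicate 2 or sißCat-both replicate 2, at an adjusted p of up to 0.0689. Among the other ring subunits MCM2, MCM4 and MCM7 fell by 0.83, 0.82 and 0.74 on the log2 scale after sißCat-mut and by 1.09, 1.08 and 1.15 after sißCat-both. The other GINS subunits GINS2, GINS3 and GINS4 fell by 0.68, 0.58 and 0.54 after sißCat-mut and by 1.08, 0.73 and 0.79 after sißCat-both. MCM10, which helps to activate the loaded helicase, changed by -0.55 ± 0.16 (adjusted p = 0.0183) and -0.92 ± 0.16 (adjusted p = 0.000372). Its first call was lost without siCtrl replicate 2 or sißCat-mut replicate 3, at an adjusted p of up to 0.075. MCM8, a related helicase that acts in homologous recombination rather than in the ring, changed by -0.46 ± 0.07 and -0.35 ± 0.07. GINS4 was read by 2 probe sets, of which the brighter was used, and with their mean its sißCat-mut call was lost at an adjusted p of 0.0595.

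**Figure D3:**
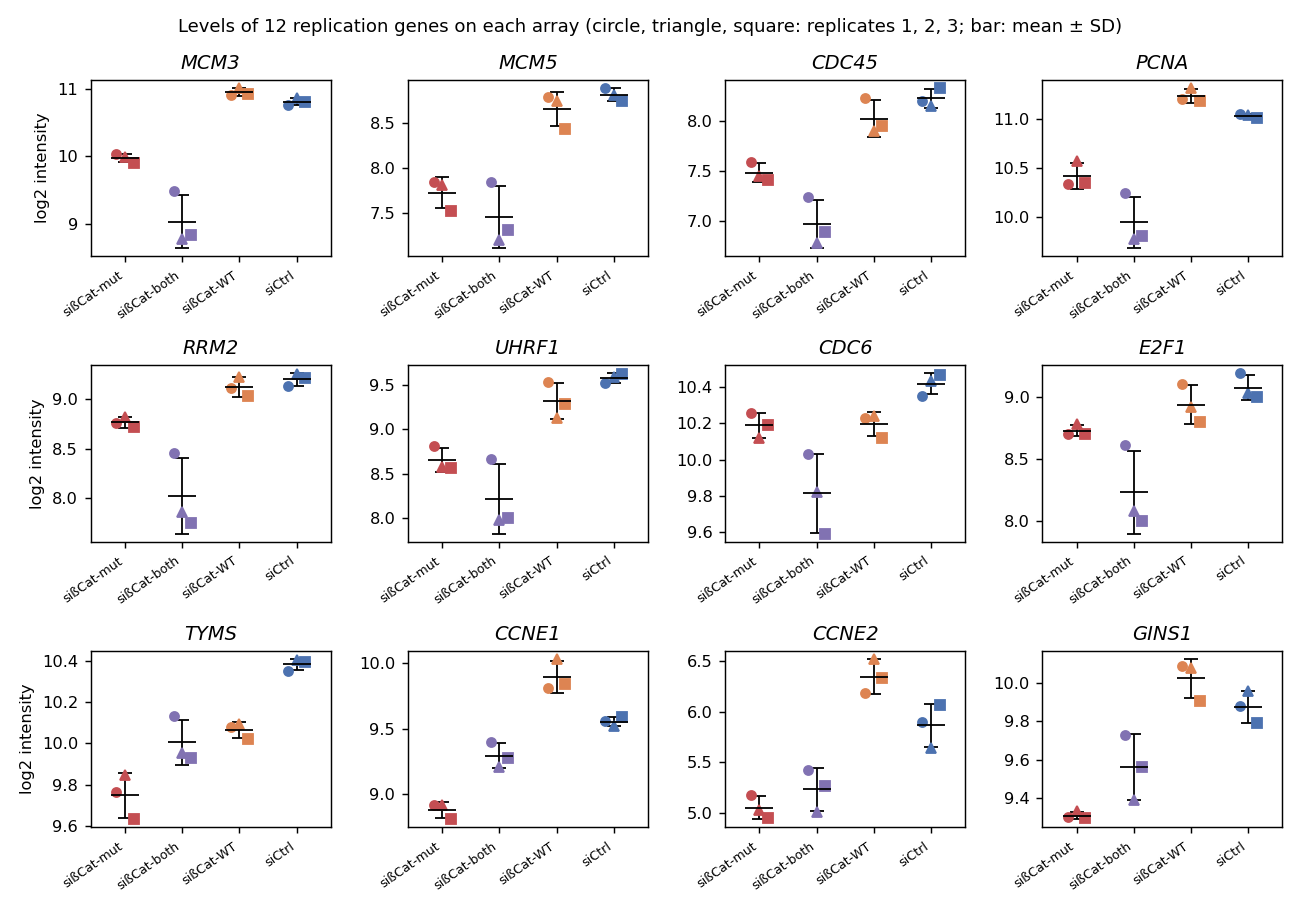
Log2 intensity of 12 genes on each array (circle, triangle and square for replicates 1, 2 and 3; bars for the mean and SD of 3 arrays) after sißCat-mut, sißCat-both, sißCat-WT and siCtrl. MCM3, CDC45, PCNA and RRM2 stand lowest after sißCat-both, TYMS, CCNE1 and GINS1 stand lowest after sißCat-mut, and CCNE1 and CCNE2 stand highest after sißCat-WT.

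Of the origin and licensing factors 4 of 10 were measured, 3 of them fell after sißCat-mut and all 4 after sißCat-both. CDC6, which loads the MCM ring together with CDT1, had 10.26, 10.12 and 10.19 after sißCat-mut, 10.03, 9.82 and 9.59 after sißCat-both and 10.23, 10.24 and 10.12 after sißCat-WT, against 10.35, 10.44 and 10.47 after siCtrl. Its siCtrl arrays were the highest of the 12, yet neither single knockdown passed the test, with -0.23 ± 0.10 after sißCat-mut (adjusted p = 0.114) and -0.22 ± 0.10 after sißCat-WT (adjusted p = 0.203). CDC6 passed after sißCat-mut in 3 of 21 alternatives (with the compared groups alone, with array weights and without sißCat-both replicate 3). After sißCat-both it fell by 0.61 on the log2 scale (adjusted p = 0.00025). CDC7, the kinase that triggers origin firing, had 7.50, 7.05 and 7.19 after sißCat-mut, 7.24, 6.92 and 7.14 after sißCat-both and 7.83, 7.61 and 7.70 after sißCat-WT, against 7.70, 7.87 and 7.71 after siCtrl. It changed by -0.51 ± 0.12 after sißCat-mut (adjusted p = 0.00517) and by -0.66 ± 0.12 after sißCat-both (adjusted p = 0.00054). CDT1, the partner of CDC6, had 8.70, 8.70 and 8.44 after sißCat-mut, 8.78, 8.42 and 8.42 after sißCat-both and 9.13, 9.02 and 8.81 after sißCat-WT, against 9.24, 9.11 and 8.98 after siCtrl, and its changes were -0.50 ± 0.12 (adjusted p = 0.00658) and -0.57 ± 0.12 (adjusted p = 0.00179). DBF4, the regulatory subunit of CDC7, had 7.52, 7.12 and 7.21 after sißCat-mut, 7.43, 7.48 and 7.20 after sißCat-both and 7.61, 7.62 and 7.65 after sißCat-WT, against 7.58, 7.70 and 7.73 after siCtrl. Both knockdowns of the truncated form were called lower, at -0.39 ± 0.10 (adjusted p = 0.0143) and -0.30 ± 0.10 (adjusted p = 0.0406). The first was lost without siCtrl replicate 3, sißCat-mut replicate 2 or sißCat-mut replicate 3, at an adjusted p of up to 0.072. The second was lost without siCtrl replicate 2 or 3, any sißCat-WT array, or sißCat-both replicate 1 or 3, at an adjusted p of up to 0.17, and also with the replicate number as a block or with quantile normalization run again.

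PCNA, the sliding clamp that tethers polymerases to DNA, was the single clamp, loader or single-strand binding gene measured of 9, with 10.33, 10.57 and 10.34 after sißCat-mut, 10.24, 9.78 and 9.81 after sißCat-both and 11.20, 11.31 and 11.18 after sißCat-WT, against 11.04, 11.04 and 11.01 after siCtrl. Every array after sißCat-mut and sißCat-both lay below every siCtrl array, and every sißCat-WT array lay above, although the last difference did not pass (0.20 ± 0.11, adjusted p = 0.344). It changed by -0.62 ± 0.11 after sißCat-mut (adjusted p = 0.001) and by -1.09 ± 0.11 after sißCat-both (adjusted p = 5.21e-06). FEN1, the flap nuclease that trims Okazaki fragments, was the single gene measured of 11 for polymerases and strand maturation, with 7.20, 7.25 and 7.04 after sißCat-mut, 7.44, 7.02 and 7.23 after sißCat-both and 7.86, 7.60 and 7.59 after sißCat-WT, against 7.60, 7.83 and 7.88 after siCtrl. It changed by -0.61 ± 0.12 (adjusted p = 0.0015) and -0.54 ± 0.12 (adjusted p = 0.0022), and the difference between sißCat-both and sißCat-mut had a 95% interval of -0.19 to 0.31.

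For nucleotide supply all 4 genes measured of 5 fell after sißCat-mut and after sißCat-both, with the deepest fall in RRM2 after sißCat-both. RRM2, the S phase subunit of ribonucleotide reductase, had 8.76, 8.82 and 8.72 after sißCat-mut, 8.46, 7.86 and 7.75 after sißCat-both and 9.11, 9.23 and 9.03 after sißCat-WT, against 9.13, 9.25 and 9.21 after siCtrl. It stood apart on the sißCat-both arrays, with -1.18 ± 0.14 (adjusted p = 1.83e-05), against -0.43 ± 0.14 after sißCat-mut (adjusted p = 0.0352). The sißCat-mut call was lost without any 1 of the 6 sißCat-mut and siCtrl arrays, at an adjusted p of up to 0.104. RRM1, the large subunit of the same enzyme, which is more stable through the cell cycle, had 8.48, 8.47 and 8.42 after sißCat-mut, 8.61, 8.34 and 8.41 after sißCat-both and 8.98, 8.98 and 8.90 after sißCat-WT, against 8.95, 8.91 and 8.95 after siCtrl. Its changes after sißCat-mut and sißCat-both were nearly equal, at -0.48 ± 0.08 (adjusted p = 0.00036) and -0.48 ± 0.08 (adjusted p = 0.000217).

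TYMS, thymidylate synthase, had 9.76, 9.85 and 9.63 after sißCat-mut, 10.13, 9.96 and 9.93 after sißCat-both and 10.08, 10.09 and 10.02 after sißCat-WT, against 10.35, 10.40 and 10.39 after siCtrl. It was the single gene of the list called lower in all 3 knockdowns, by -0.63 ± 0.08 after sißCat-mut (adjusted p = 4.34e-05), -0.38 ± 0.08 after sißCat-both (adjusted p = 0.00174) and -0.32 ± 0.08 after sißCat-WT (adjusted p = 0.0197). The sißCat-WT call was lost without siCtrl replicate 2 or 3 or sißCat-WT replicate 2 or 3, at an adjusted p of up to 0.0795. DUT, the dUTPase that keeps uracil out of DNA, had 5.66, 5.49 and 5.47 after sißCat-mut, 5.63, 5.34 and 5.73 after sißCat-both and 6.15, 5.91 and 5.84 after sißCat-WT, against 6.11, 6.14 and 6.10 after siCtrl. Its changes were -0.58 ± 0.11 (adjusted p = 0.00115) and -0.55 ± 0.11 (adjusted p = 0.00111).

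All 4 measured chromatin and fork proteins of 6 listed fell after both of these knockdowns. UHRF1, which recognises hemimethylated DNA behind the fork, had 8.81, 8.58 and 8.56 after sißCat-mut, 8.67, 7.98 and 8.004 after sißCat-both and 9.53, 9.13 and 9.28 after sißCat-WT, against 9.52, 9.58 and 9.62 after siCtrl. It changed by -0.92 ± 0.16 after sißCat-mut (adjusted p = 0.000645) and by -1.36 ± 0.16 after sißCat-both (adjusted p = 1.58e-05). DNMT1, the maintenance methyltransferase that UHRF1 recruits, had 9.04, 9.10 and 9.16 after sißCat-mut, 9.001, 8.73 and 8.84 after sißCat-both and 9.71, 9.71 and 9.60 after sißCat-WT, against 9.55, 9.67 and 9.61 after siCtrl. It changed by -0.51 ± 0.08 (adjusted p = 0.00035) and -0.75 ± 0.08 (adjusted p = 7.11e-06). WDHD1, which links the helicase to the primase polymerase, had 7.34, 7.49 and 7.54 after sißCat-mut, 7.32, 7.17 and 7.33 after sißCat-both and 8.16, 8.23 and 8.13 after sißCat-WT, against 8.09, 8.14 and 8.15 after siCtrl, with changes of -0.67 ± 0.08 (adjusted p = 2.21e-05) and -0.85 ± 0.08 (adjusted p = 1.51e-06). TIPIN, a fork protection factor, had 5.38, 5.51 and 5.15 after sißCat-mut, 5.40, 5.02 and 4.97 after sißCat-both and 5.88, 5.59 and 5.91 after sißCat-WT, against 6.04, 5.97 and 6.05 after siCtrl, with changes of -0.68 ± 0.13 (adjusted p = 0.00115) and -0.89 ± 0.13 (adjusted p = 7.87e-05). The siCtrl arrays of these 4 genes overlapped no array of sißCat-mut or sißCat-both, which also held for most other genes of the list. The share of all named genes without overlap was not computed.

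The E2F factors and the E cyclins did not follow 1 pattern. All 5 fell after sißCat-both, and after sißCat-mut CCNE1 and CCNE2 did but E2F1, E2F2 and E2F8 did not pass. E2F1, an activator of S phase genes, had 8.70, 8.79 and 8.71 after sißCat-mut, 8.62, 8.08 and 8.01 after sißCat-both and 9.11, 8.92 and 8.80 after sißCat-WT, against 9.19, 9.03 and 9.01 after siCtrl. Its change was -0.35 ± 0.14 after sißCat-mut (adjusted p = 0.0817) and -0.84 ± 0.14 after sißCat-both (adjusted p = 0.000241). E2F8, an atypical member that represses such genes, had 7.93, 7.97 and 7.95 after sißCat-mut, 8.001, 7.27 and 7.16 after sißCat-both and 8.45, 8.25 and 8.10 after sißCat-WT, against 8.39, 8.37 and 8.27 after siCtrl, with -0.39 ± 0.17 (adjusted p = 0.112) and -0.87 ± 0.17 (adjusted p = 0.00104). In both genes the arrays after sißCat-mut lay below all siCtrl arrays. E2F1 passed after sißCat-mut in 6 of 21 alternatives (without dim genes, with a trended prior, with the compared groups alone, with the replicate block, with array weights and without sißCat-both replicate 1). E2F8 passed in 3 of 21, the last 2 of these and the compared groups alone. E2F2, another activator, changed by -0.30 ± 0.14 (adjusted p = 0.152) and -0.42 ± 0.14 (adjusted p = 0.0357). Its sißCat-both and siCtrl arrays overlapped, and that call was lost without siCtrl replicate 2 or 3 or sißCat-both replicate 2 or 3, at an adjusted p of up to 0.165.

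CCNE1 and CCNE2 encode the E cyclins, which activate CDK2 at the start of S phase. They were the 2 genes of the list called higher after sißCat-WT, where 5.20% of named genes were called higher. In that comparison 10 of the 32 genes were above 0. CCNE1 had 8.92, 8.91 and 8.81 after sißCat-mut, 9.39, 9.21 and 9.28 after sißCat-both and 9.81, 10.03 and 9.84 after sißCat-WT, against 9.56, 9.52 and 9.59 after siCtrl. The sißCat-WT arrays were above and the sißCat-mut and sißCat-both arrays below every siCtrl array, with changes of -0.68 ± 0.08 after sißCat-mut (adjusted p = 3.06e-05), -0.26 ± 0.08 after sißCat-both (adjusted p = 0.0212) and 0.34 ± 0.08 after sißCat-WT (adjusted p = 0.0147). CCNE2 had 5.17, 5.03 and 4.95 after sißCat-mut, 5.42, 5.004 and 5.26 after sißCat-both and 6.19, 6.52 and 6.34 after sißCat-WT, against 5.90, 5.64 and 6.06 after siCtrl. It showed the same order of signs, with -0.82 ± 0.13 (adjusted p = 0.000337), -0.64 ± 0.13 (adjusted p = 0.00146) and 0.48 ± 0.13 (adjusted p = 0.0306). Between sißCat-mut and sißCat-WT directly, CCNE1 differed by -1.02 ± 0.08 (adjusted p = 4.66e-07) and CCNE2 by -1.30 ± 0.13 (adjusted p = 4.1e-06), the largest differences of the list in that comparison. The sißCat-WT calls rest on few arrays. That of CCNE1 was lost without siCtrl replicate 2 or sißCat-WT replicate 2, at an adjusted p of up to 0.078, and that of CCNE2 without siCtrl replicate 1 or 2 or sißCat-WT replicate 2 or 3, at an adjusted p of up to 0.141. The sißCat-both call of CCNE1 was lost without siCtrl replicate 1 or 3 or sißCat-both replicate 2 or 3 and with quantile normalization run again, at an adjusted p of up to 0.0803.

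Setting sißCat-both against sißCat-mut compares different siRNAs, both directed at the truncated form and the first also at the full-length form. How far each lowered the truncated form was not checked, so what loss of the full-length form adds was not tested. Of the 32 genes 8 were lower and 2 higher after sißCat-both, where 11.6% of named genes were lower and 10.6% higher, and the median difference was -0.23. The lower genes were MCM3, MCM7, CDC6, CDC45, PCNA, RRM2, DNMT1 and E2F1. MCM3 differed by -0.94 ± 0.14 (adjusted p = 0.000313), RRM2 by -0.74 ± 0.14 (adjusted p = 0.00172), CDC45 by -0.52 ± 0.12 (adjusted p = 0.00712), E2F1 by -0.50 ± 0.14 (adjusted p = 0.0174) and PCNA by -0.47 ± 0.11 (adjusted p = 0.008). The higher genes were CCNE1, by 0.42 ± 0.08 (adjusted p = 0.00201), and TYMS, by 0.26 ± 0.08 (adjusted p = 0.0302). The calls of MCM3, RRM2, CDC45, PCNA and CCNE1 held without any 1 array. Those of MCM7, CDC6, DNMT1, E2F1 and TYMS were each lost without at least 1, at adjusted p values of up to 0.098, 0.0567, 0.15, 0.0822 and 0.123. The DNMT1 call was lost in 14 of 21 alternatives, among them median centring, the replicate block and array weights. In all, 24 genes were further below siCtrl after sißCat-both than after sißCat-mut, most of them by less than the test could call. For RRM1 the difference was -0.002 with a 95% interval of -0.17 to 0.16, for FEN1 0.06 with -0.19 to 0.31 and for CDT1 -0.07 with -0.33 to 0.18.

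**Figure D4:**
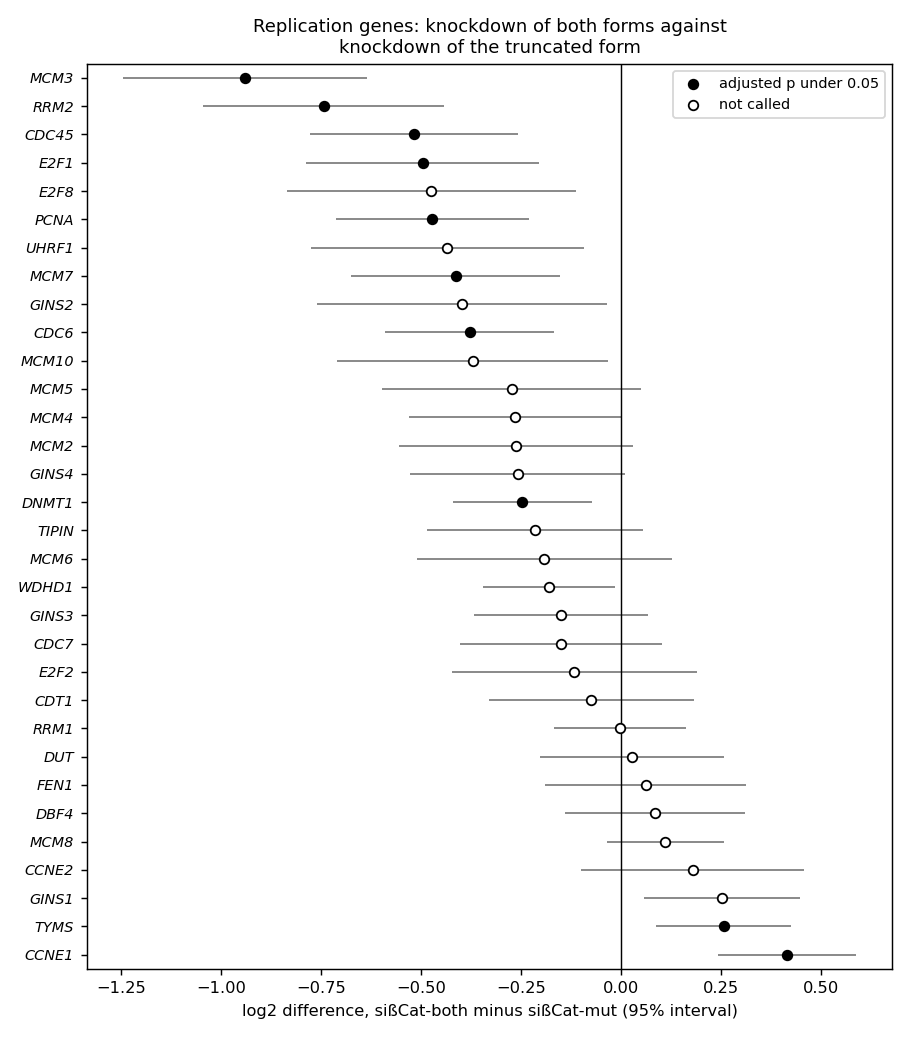
Log2 difference of sißCat-both minus sißCat-mut for the 32 genes with 95% intervals, in order of size. Filled points passed an adjusted p of 0.05. The differences run from -0.94 for MCM3 to 0.42 for CCNE1, and 24 of 32 are below 0.

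One array weighs on this comparison. Over the 32 genes the mean log2 level was 8.20 on sißCat-both replicate 1, against 7.77 and 7.82 on replicates 2 and 3, and that array was the highest of its group for 29 of 32 genes. The means were 8.20, 8.15 and 8.06 after sißCat-mut and 8.76, 8.69 and 8.61 after sißCat-WT, against 8.75, 8.76 and 8.75 after siCtrl. Replicate 1 was also the highest of its group most often after sißCat-mut (19 of 32 genes) and sißCat-WT (21 of 32). In each of these groups replicate 3 was the lowest for 23 of 32. After siCtrl replicates 1, 2 and 3 were the highest for 11, 10 and 11. Without sißCat-both replicate 1, 19 of 32 genes were lower and 1 was higher after sißCat-both than after sißCat-mut, and MCM3 differed by -1.17. TYMS then no longer passed (0.19, adjusted p = 0.104). The count of genes below siCtrl after sißCat-both was 31 without it. Without sißCat-both replicate 3 or sißCat-mut replicate 1, 6 genes were called between sißCat-both and sißCat-mut.

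**Figure D5:**
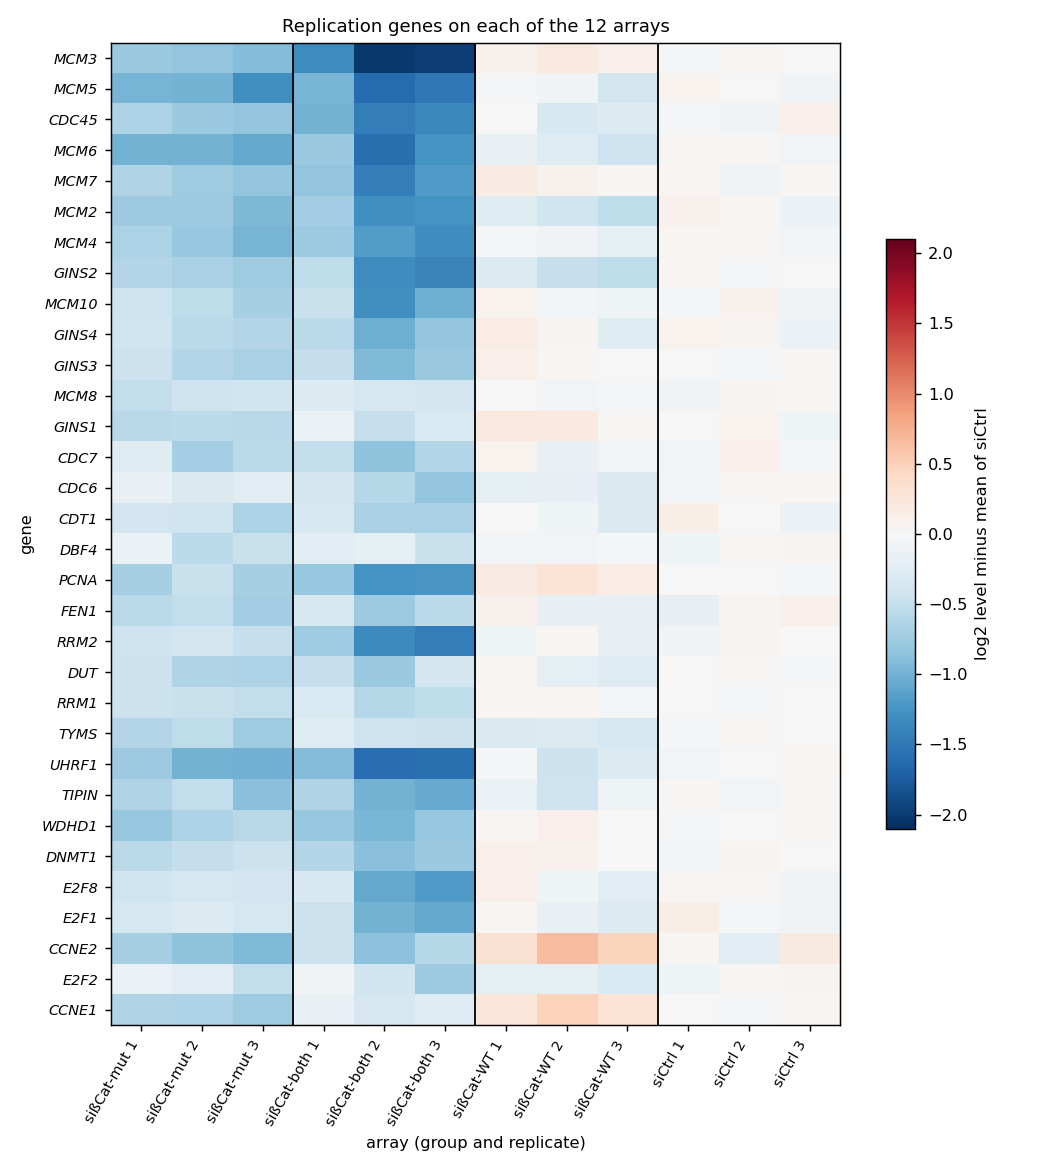
Log2 level of each of the 32 genes on each of the 12 arrays minus the siCtrl mean of that gene (blue lower, red higher), genes ordered by role. The sißCat-mut and sißCat-both columns are blue throughout, with sißCat-both replicate 1 paler than its replicates 2 and 3, and MCM3 darkest.

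The departure from additivity compares the effect of losing the truncated form with and without the full-length form, as sißCat-both minus sißCat-WT set against sißCat-mut minus siCtrl. It passed for 4 of 32 genes, 3 of them below 0 and 1 above, where 8.79% of named genes were called below and 7.60% above. These counts do not set the list apart from named genes in general. MCM3 fell by 1.92 on the log2 scale in sißCat-both relative to sißCat-WT and by 0.84 in sißCat-mut relative to siCtrl, a departure of -1.08 ± 0.20 (adjusted p = 0.00227). PCNA departed by -0.67 ± 0.16 (adjusted p = 0.0106), RRM2 by -0.67 ± 0.20 (adjusted p = 0.0346) and TYMS in the other direction by 0.57 ± 0.11 (adjusted p = 0.00293). The RRM2 call was lost without any 1 array other than sißCat-WT replicate 3 and sißCat-both replicate 1, at an adjusted p of up to 0.0822. sißCat-both is 1 siRNA and not a mixture of the other 2, so the comparison is between different siRNAs. Without sißCat-both replicate 1, 9 of 32 genes were called.

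Genes outside the list that work beside these were read in the same way. The background for every list below was again 13.6% of named genes lower and 11.98% higher after sißCat-mut. It was 18.1% and 15.5% after sißCat-both and 4.97% and 5.20% after sißCat-WT. Of other replisome and origin factors 15 of 26 were measured, 10 fell after sißCat-mut, 14 after sißCat-both and 1, the helicase RECQL4, after sißCat-WT, and 0 rose. DSCC1, a subunit of an alternative clamp loader, changed by -0.99 ± 0.10 (adjusted p = 1.13e-05) and -1.19 ± 0.10 (adjusted p = 1.24e-06). TOP2A, the topoisomerase that untangles sister DNA, changed by -0.57 ± 0.10 and -1.04 ± 0.10, and SSRP1 and SUPT16H, the subunits of the FACT histone chaperone, by -0.62 ± 0.13 and -0.82 ± 0.08 after sißCat-mut and by -0.93 ± 0.13 and -0.88 ± 0.08 after sißCat-both. All of these passed the test. Of histone chaperones and maintenance methylation factors 8 of 10 were measured, 7 fell in each of these knockdowns, and after sißCat-WT limma called 0 (2 lower and 1 higher at an unadjusted p under 0.05). CDCA7, which helps to recruit the remodeller HELLS, changed by -1.47 ± 0.18 (adjusted p = 4.37e-05) and -1.82 ± 0.18 (adjusted p = 3.74e-06). NASP, a histone H3 and H4 chaperone, changed by -1.13 ± 0.11 and -0.90 ± 0.11, and SLBP, which binds the stem-loop of histone mRNA, by -0.65 ± 0.07 and -0.70 ± 0.07, all with a call.

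Other enzymes of nucleotide supply moved in both directions. Of 12 measured of 20, 5 fell and 1 rose after sißCat-mut, where 13.6% of named genes were called lower and 11.98% higher. After sißCat-both 5 fell and 3 rose, where the shares were 18.1% and 15.5%. After sißCat-WT 4 fell (DCK, CTPS2, IMPDH1 and IMPDH2) and 1 rose (RRM2B), where they were 4.97% and 5.20%. Whether the rises exceed these shares was not tested. IMPDH1 was the gene that rose after sißCat-mut (0.23 ± 0.06, adjusted p = 0.0148). CTPS1, which makes CTP, changed by -0.98 ± 0.14 and -1.13 ± 0.14, IMPDH2, the rate-limiting enzyme of guanine nucleotide synthesis, by -0.89 ± 0.10 and -1.08 ± 0.10, and PPAT, the first enzyme of purine synthesis, by -0.83 ± 0.09 and -1.07 ± 0.09, all called lower in both. DTYMK and SHMT1 were also called lower after sißCat-both, and SAMHD1 and UMPS after sißCat-mut. RRM2B, the p53-inducible counterpart of RRM2, SAMHD1, which degrades deoxynucleotides, and CTPS2 were the genes that rose after sißCat-both, by 0.58, 0.38 and 0.33. These, IMPDH1, DTYMK, SHMT1 and UMPS are named because of their values. SAMHD1 had 8.98, 9.05 and 9.12 after sißCat-mut, 9.73, 9.87 and 10.14 after sißCat-both and 9.37, 9.43 and 9.41 after sißCat-WT, against 9.37, 9.56 and 9.66 after siCtrl. It was thus above siCtrl after sißCat-both (adjusted p = 0.0104) and below it after sißCat-mut (-0.48 ± 0.10, adjusted p = 0.00309). Repair genes that peak in S phase had 8 of 16 measured, of which 7 fell after sißCat-mut, 7 fell and 1 rose after sißCat-both, and limma called 0 after sißCat-WT (0 also at an unadjusted p under 0.05). EXO1, an exonuclease of mismatch repair, changed by -0.78 ± 0.14 and -0.95 ± 0.14, and UNG, the uracil glycosylase, by -0.89 ± 0.10 and -0.80 ± 0.10. BRIP1, a helicase partner of BRCA1 named because of its values, was the gene that rose after sißCat-both (0.30 ± 0.11, adjusted p = 0.0475), and it fell by 0.31 after sißCat-mut (adjusted p = 0.0472).

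Among RB, E2F and DREAM regulators 15 of 18 were measured, with 10 lower and 1 higher after sißCat-mut and 9 lower and 1 higher after sißCat-both. After sißCat-WT 3 were lower (LIN9, LIN37 and LIN54) and 1 was higher (E2F7). The shares of named genes called higher in these knockdowns were 11.98%, 15.5% and 5.20%. E2F7, the close relative of E2F8, had 7.07, 7.23 and 7.22 after sißCat-mut, 7.43, 7.09 and 7.33 after sißCat-both and 8.73, 8.89 and 8.82 after sißCat-WT, against 8.17, 8.32 and 8.37 after siCtrl. Like the E cyclins it was below siCtrl after sißCat-mut (-1.11 ± 0.10, adjusted p = 1.96e-06) and sißCat-both (-1.003 ± 0.10, adjusted p = 2.64e-06) and above it after sißCat-WT (0.53 ± 0.10, adjusted p = 0.0029). E2F3, an activator, changed by -0.67 ± 0.11 and -0.80 ± 0.11, and FOXM1, the activator of G2 and M genes, by -0.37 ± 0.12 and -0.73 ± 0.12, all with a call. The gene that rose in both knockdowns was the DREAM subunit LIN37, by 0.35 and 0.29, and it fell by 0.34 after sißCat-WT. It is named because of its values.

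Of G1 and S phase cyclins, kinases and inhibitors 12 of 19 were measured, 10 fell after sißCat-mut and 8 after sißCat-both, and 2, CCND1 and WEE1, rose after sißCat-WT. MYC had 6.99, 6.91 and 6.81 after sißCat-mut, 7.08, 6.66 and 6.58 after sißCat-both and 9.35, 9.29 and 9.41 after sißCat-WT, against 9.39, 9.31 and 9.33 after siCtrl. It changed in both knockdowns that reach the truncated form, by -2.44 ± 0.11 (adjusted p = 1.04e-08) and -2.57 ± 0.11 (adjusted p = 2.95e-09), and its sißCat-WT arrays overlapped siCtrl (0.01 ± 0.11). CDK6, a kinase partner of the D cyclins, changed by -1.56 ± 0.10 and -1.39 ± 0.10. CDC25A, the phosphatase that activates CDK2, changed by -0.45 ± 0.15 and -1.16 ± 0.15, and CHEK1, the checkpoint kinase, by -0.61 ± 0.11 and -1.08 ± 0.11, all with a call. CCND1, cyclin D1, had 9.10, 9.08 and 9.03 after sißCat-mut, 9.40, 9.17 and 9.18 after sißCat-both and 10.37, 10.35 and 10.30 after sißCat-WT, against 9.91, 9.91 and 9.91 after siCtrl. Its groups did not overlap, with -0.84 ± 0.07 after sißCat-mut, -0.66 ± 0.07 after sißCat-both and a rise of 0.43 ± 0.07 after sißCat-WT (adjusted p = 0.00194).

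Mitosis and spindle genes were read as a comparison from the other end of the cell cycle. Of 16 measured of 20, 15 fell after sißCat-mut and 15 after sißCat-both, with medians of -0.60 and -0.86 that stood beside -0.60 and -0.82 for the replication genes. After sißCat-WT 1, PRC1, rose, 14 of 16 were above 0 and the median was 0.14, beside -0.08 for the replication genes, 10 of 32 of which were above 0. Whether the lists differ was not tested. PRC1, a cross-linker of the spindle midzone, changed by -0.52 ± 0.10 and -1.33 ± 0.10, and BUB1, a kinetochore kinase, by -0.79 ± 0.10 and -1.19 ± 0.10, all with a call. Genes used later in the cycle thus fell beside the replication genes, with medians of similar size.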

How the data were processed

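RNA of 12 HepG2 samples (4 groups of 3, from the sample titles) was extracted with Trizol, amplified and biotin-labelled for Affymetrix arrays according to the labels' protocols. Nothing says whether the triplicates were separate cultures, so p-values cover the spread between these arrays, possibly a technical one. The authors deposited log2 intensities of 53617 probe sets, for which the submitters' processing notes name RMA and Affymetrix Expression Console 1.1. RMA equalises array distributions, so a change shared by most genes is removed, and changes near the floor are compressed. The number of arrays limits the precision.

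Of these probe sets 16098 had 1 gene symbol in GEO's platform annotation, 0 had several and 37519 were not listed. All 16098 gene identifiers matched RefSeq. For 779 genes with several probe sets that with the highest mean was kept, which left 14884 genes, with no filter. One limma model (version 3.58.1 in R 4.3.3) held a mean for each of the 4 groups over the 12 arrays, with 8 residual degrees of freedom and 13.3 including the prior of eBayes. Each of 7 contrasts was tested on both sides and adjusted by Benjamini-Hochberg over the 14884 genes. Called means an adjusted p below 0.05. The steps were tested on simulated data.

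The 32 genes, the other lists and the tests were chosen with earlier results of these data known. Values of every array are given, within each role, for the 3 genes with the largest and the 1 with the smallest change in sißCat-both minus siCtrl, and for genes called in sißCat-WT minus siCtrl or in the departure from additivity. From each other list up to 4 called genes with the largest changes could be named, with MYC, CCND1 and E2F3. Exceptions are stated. Alternatives were a repeated quantile normalization, median centring, the mean of probe sets, leaving out dim genes (below percentile 40), a trended prior and a robust prior. Further ones were only the groups compared, array weights, a replicate block and leaving out each array. Same-numbered arrays deviated together (every correlation over 0.1) for sißCat-both with sißCat-WT (0.12, 0.15 and 0.13), as a pattern in the data, and in no other pair of groups. Promoter windows are RefSeq's (GRCh38.p14). Plots used Python 3.11.15 and matplotlib 3.10.9.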

Additional observations from a re-analysis of the deposited data

Results flagged for a closer look

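For 4 of the 32 genes sißCat-both minus sißCat-WT differed from sißCat-mut minus siCtrl, by the test of the difference itself in limma. The groups received different siRNAs, and how far each siRNA lowered its target was not checked. Of the 4 genes, 3 were below 0 and 1 above, where 8.79% of named genes were called below and 7.60% above. The list thus held about as many such calls as named genes in general, and a difference from them was not tested. MCM3 was -1.08 ± 0.20 (log2 ± standard error, adjusted p = 0.00227), with -1.92 for sißCat-both minus sißCat-WT and -0.84 for sißCat-mut minus siCtrl. PCNA was -0.67 ± 0.16 (adjusted p = 0.0106), with -1.29 and -0.62 for the same pairs. RRM2 was -0.67 ± 0.20 (adjusted p = 0.0346), with -1.10 and -0.43, and its call was lost without any 1 of 10 of the 12 arrays, at an adjusted p of up to 0.0822. TYMS was 0.57 ± 0.11 (adjusted p = 0.00293), with -0.06 and -0.63.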

How the results depend on the processing

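Of 4672 values of single genes under alternatives, 4503 kept their side of the threshold (44 uncalled values turned their sign), 101 lost a call and 68 gained one, and no called change turned its sign. The 32 genes called after sißCat-both against siCtrl were 29 to 32 and the 28 after sißCat-mut 25 to 30 when arrays were left out 1 at a time. The corresponding counts were 21 to 29 for sißCat-mut against sißCat-WT, 28 to 30 for sißCat-both against sißCat-WT, 6 to 20 for sißCat-both against sißCat-mut (10 with all arrays), 3 to 9 for additivity (4) and 0 to 5 for sißCat-WT against siCtrl (3). In fits of the compared groups alone, sißCat-both against sißCat-mut gave 5, and sißCat-WT against siCtrl gave 5, as it did with array weights (5). The cause was not tested. The counts with the replicate block were 29 for sißCat-mut, 31 for sißCat-both and 4 for sißCat-WT against siCtrl, 26 and 29 for sißCat-mut and sißCat-both against sißCat-WT, 11 for sißCat-both against sißCat-mut and 5 for additivity. In the 250 bases before the start alone, which leaves out matches after or across it, 13 of 27 genes (48.1%) held the E2F motif, beside 4.59% of named genes.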
